A study of Homo sapiens with 7 samples.

Results

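The nuclear genes for the subunits of respiratory complex I were followed through transcription, mRNA abundance and polysome association in HCT116 cells, an established human colorectal carcinoma cell line. Members were the symbols that begin with NDUFA, NDUFB, NDUFC, NDUFS or NDUFV followed only by a number, plus NDUFAB1, and the rule used no measured value. It found 38 of the 20072 symbols in the deposited table. The genes named NDUFAF, which code for assembly factors and not for subunits, were left outside. All 38 had at least 1 RPKM in at least 1 assay and a value above 0 in every library, so none was lost to the filter on low values. RPKM is the number of reads on the exons of a gene scaled to the length of those exons and to the size of the library.

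Untreated log-phase HCT116 cells were the only biological group, and 3 assays were run on them. Transcription rate (TR) was read by GRO-seq in 2 libraries, as the labelled RNA made in a nuclear run-on. RNA abundance (RA) was read by RNA-seq in 3 libraries. Translation activity (TA) was read in 2 libraries of mRNA that sedimented with polysomes, from cells given cycloheximide, which holds ribosomes on the mRNA, before lysis. The comparisons are therefore between assays on 1 line grown in serum-free medium with growth factors, and a difference in how the RNA was prepared cannot be told apart from a difference between TR, RA and TA. The study calls the libraries of an assay biological replicates, and whether they came from separate cultures was not given in the sources used here, so p-values cover the spread between these libraries. Values are shares of libraries made from bulk cells, in which fewer cells with an mRNA and less mRNA per cell cannot be told apart.

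Complex I is the entry point of electrons into the mitochondrial respiratory chain. It takes electrons from NADH, passes them through a flavin and a series of iron-sulfur clusters in an arm that lies in the matrix, and hands them to ubiquinone, while an arm in the inner membrane pumps protons. The core subunits carry out this chemistry and have bacterial counterparts. Those of the matrix arm are encoded in the nucleus and those of the membrane arm by mitochondrial DNA. Accessory subunits surround the core and are needed to build and hold the enzyme. The mitochondrially encoded subunits were not analysed here.

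The read totals that scale the RPKM values were worked out from the deposited values. They were 3391897 and 5629982 for TR, 20299018 to 22532134 for RA and 22421062 to 30805391 for TA. Of each total, 99.7% to 99.8% lay on the exons of listed genes, so the totals are not the reads sequenced. The complex I genes together took 0.150% and 0.153% of the totals in the TR libraries, 0.251% to 0.294% in the RA libraries and 0.389% and 0.40% in the TA libraries. The lowest read number behind any complex I value was 35, for NDUFB2 in TR replicate 1. Of the 8 colorectal epithelial markers, EPCAM, CDH1, KRT8 and KRT18 were at 20.03 RPKM or more in every library and CDX2 at 4.39 to 16.4 RPKM, while CDX1 was at or near 0 throughout and VIL1 and LGALS4 were at or near 0 in RA and TA. The summed level of these markers was 472.0 and 555.0 RPKM in TR, 1101 to 1544 in RA and 2982 and 3265 in TA. Of the 8 markers of blood, endothelial and fibroblast cells, PTPRC, CD3E, PECAM1, VWF, COL1A2 and DCN were under 1 RPKM in every library, CD68 was at 11.4 to 59.0 RPKM and COL1A1 at 3.33 to 18.9 RPKM. Their summed level was 74.8 and 75.9 RPKM in TR, 22.3 to 47.3 in RA and 41.2 and 49.3 in TA, and its part in the results below was not tested.

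Complex I transcripts took up a growing share of the RNA from TR to RA to TA, although the genes differed widely. The median level of the 38 genes was 33.4 RPKM in TR, 62.2 in RA and 95.4 in TA. Over all 14305 genes tested the same medians fell in order, at 14.2, 8.94 and 6.34 RPKM. RA was above TR for 25 complex I genes and below TR for 3, where 19.2% of all genes tested were called above and 48.0% below (limma, Benjamini-Hochberg adjusted p under 0.05). TA was above RA for 16 genes, where 6.66% of all genes were called above, and below RA for 0, where 29.2% were called below. For TA below RA, 3 genes had an unadjusted p under 0.05 in limma and 2 passed the adjusted threshold in limma voom. From end to end, TA was above TR for 27 complex I genes and below TR for 2, beside 17% and 57.5% of all genes. These comparisons share the RA or TR libraries, so the counts are not independent of each other. When each library was left out in turn, 20 of the 25 calls of RA above TR, 4 of the 16 of TA above RA and 23 of the 27 of TA above TR held every time. The count of TA above RA was 7, 7 and 8 without RA replicate 3, TA replicate 1 and TA replicate 2, and that of RA below TR was 1 without either TR library. Without RA replicate 3 or either TA library, the count of TA above RA also fell over all genes tested. The drop was thus not particular to complex I genes. In all, 14 complex I genes were called above in both steps and 7 in none of the 3 comparisons on this scale, without centring.

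**Figure D1:**
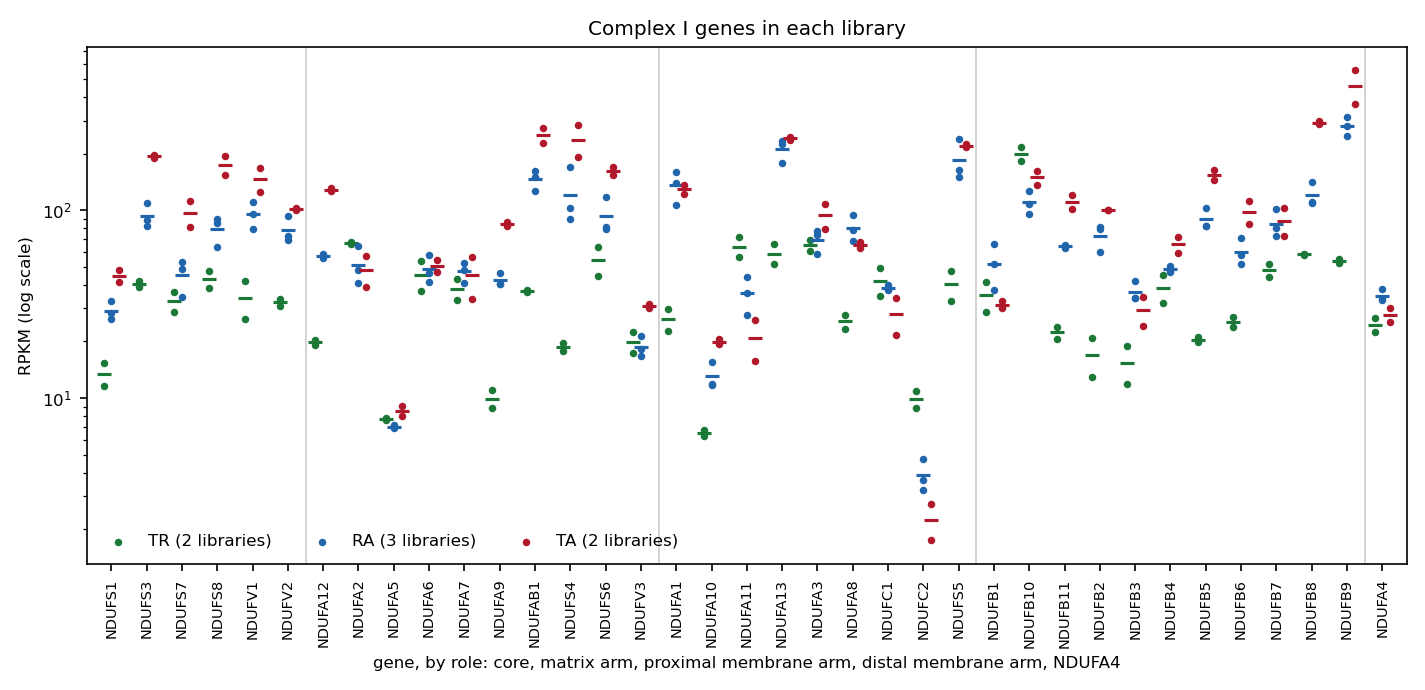
RPKM (log scale) of 37 of the 38 complex I genes in each library, grouped by the place of the subunit in the enzyme. Dots are single libraries (2 TR, 3 RA, 2 TA) and dashes are the means. TA lies highest in most columns, while NDUFA11, NDUFB10 and NDUFC2 are among the genes that are highest in TR.

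The size of the changes is read against the shift of all genes. The median log2 ratio was 1.01 for RA over TR in complex I genes, against -0.58 over all genes tested, and 0.45 for TA over RA, against -0.37. For TA over TR it was 1.60 against -1.08. When each library was centred on its median, the log2 ratios rose by 0.67 for RA over TR, by 0.50 for TA over RA and by 1.17 for TA over TR. With centring, RA was above TR for 33 complex I genes and below for 0, while over all genes 5066 were called above and 4814 below. TA was then above RA for 25 and below for 0 (2713 and 1404 of all genes). TA was above TR for 35 and below for 1 (5436 and 5044 of all genes). The majority direction of the complex I genes was thus the same on both scales, but the 3 calls of RA below TR were made only without centring. At the level of TR, NDUFB10 was highest in both libraries and NDUFA10 lowest, and at the level of RA and TA NDUFB9 was highest and NDUFC2 lowest in every library.

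Of the 6 core subunits of the matrix arm described here, 5 were called above TR in RA, 4 above RA in TA and 6 above TR in TA, and the median log2 ratios were 1.16 for RA over TR and 0.84 for TA over RA. NDUFS3, a core subunit of the part that reduces ubiquinone, was at 39.04 and 42.04 RPKM in TR, at 109.7, 82.8 and 88.2 in RA and at 189 and 197 in TA. The 3 ranges did not overlap. Its log2 ratio was 1.2 ± 0.19 (SE) for RA over TR (adjusted p = 0.000626) and 1.06 ± 0.19 for TA over RA (adjusted p = 0.00583). NDUFS8, which holds 2 of the iron-sulfur clusters, was at 38.5 and 47.7 RPKM in TR, at 85.9, 63.8 and 90.02 in RA and at 153 and 195 in TA, also without overlap. Its log2 ratios were 0.88 ± 0.22 and 1.13 ± 0.22 (adjusted p = 0.00845 and 0.00839). The first lost its call without TR replicate 1 and the second without TA replicate 2, where the adjusted p was 0.0806 and 0.0501.

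NDUFS7 passed the test at the second step and not at the first. This subunit, which carries the last iron-sulfur cluster before ubiquinone, was at 36.8 and 28.7 RPKM in TR, at 53.02, 34.6 and 48.5 in RA and at 81.9 and 112 in TA. The TR and RA libraries overlapped, and the log2 ratio of RA over TR was 0.46 ± 0.25 (adjusted p = 0.133, or 0.0397 without RA replicate 2). TA lay above every RA library, with a log2 ratio of 1.10 ± 0.25 (adjusted p = 0.0126). That call was lost without TA replicate 2, at an adjusted p of 0.0759.

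Of the core subunits that take up electrons from NADH, NDUFV1 and NDUFV2 passed the test at the first step and NDUFS1 at both. NDUFV1, which binds NADH and the flavin, was at 41.8 and 26.5 RPKM in TR, at 111, 79.8 and 95.5 in RA and at 125 and 169 in TA. RA and TA lay above TR without overlap, with a log2 ratio of RA over TR of 1.5 ± 0.26 (adjusted p = 0.00112), and that of TA over RA was 0.62 ± 0.26 (adjusted p = 0.0969). NDUFV2, which holds an iron-sulfur cluster beside it, had a log2 ratio of 1.27 ± 0.18 for RA over TR (adjusted p = 0.000405) and of 0.39 ± 0.18 for TA over RA (adjusted p = 0.133, or 0.0416 without RA replicate 1). NDUFS1, the longest core subunit with several clusters, was at 15.3 and 11.6 RPKM in TR, at 32.96, 26.3 and 28.2 in RA and at 47.8 and 41.5 in TA. Its ranges did not overlap, and its log2 ratios were 1.12 ± 0.19 and 0.62 ± 0.19 (adjusted p = 0.00104 and 0.0378). The second was lost without RA replicate 2 or 3 or either TA library, with adjusted p up to 0.194.

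Among the accessory subunits of the matrix arm, 5 genes passed the test at both steps, 1 at the second alone and 4 in no comparison without centring. Of 10 genes, 5 were called above TR in RA and 6 above RA in TA, and none was called below. Of all genes tested, 19.2% and 6.66% were called above in these steps and 48.0% and 29.2% below. The 6 genes with TA above RA were NDUFA9, NDUFA12, NDUFAB1, NDUFS4, NDUFS6 and NDUFV3, while NDUFA2, NDUFA5, NDUFA6 and NDUFA7 passed in none. With centring, RA was above TR for 9 of the 10, TA above RA for 7 and TA above TR for 10. These counts stood beside 5066, 2713 and 5436 of all 14305 genes. NDUFS4, a subunit of the NADH end whose loss causes Leigh syndrome, was at 19.6 and 17.9 RPKM in TR, at 89.6, 170.3 and 103 in RA and at 283 and 193 in TA. It had the highest RA over TR of the 38 genes, at 2.63 ± 0.30 in log2 or 6.18-fold (adjusted p = 0.000111), and TA was 12.4-fold above TR. TA over RA was 1.0 ± 0.30 (adjusted p = 0.0344), and this call was lost without RA replicate 1 or 3, TA replicate 1 or either TR library, with adjusted p up to 0.210.

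NDUFA12 and NDUFA9 rose at both steps with little spread between libraries. NDUFA12 was at 19.2 and 20.4 RPKM in TR, at 58.3, 55.9 and 57.1 in RA and at 131 and 126 in TA, so that the assays stood well apart. Its log2 ratios were 1.52 ± 0.15 and 1.17 ± 0.15 (adjusted p = 4.28e-05 and 0.00312). NDUFA9, which sits near the ubiquinone entry, was at 10.99 and 8.83 RPKM in TR, at 46.3, 40.3 and 40.2 in RA and at 86.6 and 82.2 in TA. Its log2 ratios were 2.09 ± 0.17 and 1.0 ± 0.17 (adjusted p = 1.47e-05 and 0.00510). With NDUFS3 and NDUFB8 these were the 4 genes whose call of TA above RA held when each library was left out in turn. NDUFAB1, the mitochondrial acyl carrier protein, which also serves fatty acid synthesis, was at 37.6 and 36.5 RPKM in TR, at 162, 127 and 149.6 in RA and at 229 and 275 in TA. The ranges did not overlap, with log2 ratios of 1.97 ± 0.19 and 0.78 ± 0.19 (adjusted p = 4.57e-05 and 0.0175), the second lost without RA replicate 3 or either TA library, at up to 0.0967.

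NDUFS6, a subunit that binds zinc, was at 63.5 and 44.7 RPKM in TR, at 118, 79.7 and 81.6 in RA and at 154 and 171 in TA. RA lay above TR and TA above RA without overlap, with log2 ratios of 0.78 ± 0.24 and 0.82 ± 0.24 (adjusted p = 0.0219 and 0.0333). The first call was lost without TR replicate 2, at 0.180, and the second was kept only without RA replicate 1, with adjusted p up to 0.136.

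The 4 matrix arm genes that passed in no comparison without centring are given by their values. NDUFA6, which binds an acyl carrier protein, was at 37.1 and 53.6 RPKM in TR, at 57.6, 46.2 and 41.4 in RA and at 47.1 and 54.1 in TA, with overlap throughout. NDUFA2 was at 68.01 and 65.8 RPKM in TR, at 64.2, 40.8 and 47.8 in RA and at 38.9 and 57.2 in TA. Its RA over TR was the lowest of the matrix arm accessory genes, at -0.42 ± 0.25 (adjusted p = 0.164, or 0.0456 without RA replicate 1). NDUFA7 ranged from 33.3 to 43.1 RPKM in TR and from 33.6 to 56.6 in RA and TA, and NDUFA5 from 6.89 to 9.08 RPKM in all 7 libraries. The exons that the deposited values count for NDUFA5 add up to 6506 bases, against a coding length of 348 bases in GENCODE. With centring, RA over TR passed for NDUFA5, NDUFA6 and NDUFA7 (adjusted p = 0.0249, 0.0126 and 0.00598) and not for NDUFA2 (adjusted p = 0.358), while TA over TR passed for all 4, with adjusted p up to 0.0415. NDUFV3 differed from these, since RA over TR was -0.08 ± 0.19 (adjusted p = 0.725) while TA over RA was 0.73 ± 0.19 (adjusted p = 0.0199, up to 0.104 without RA replicate 3 or either TA library).

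**Figure D2:**
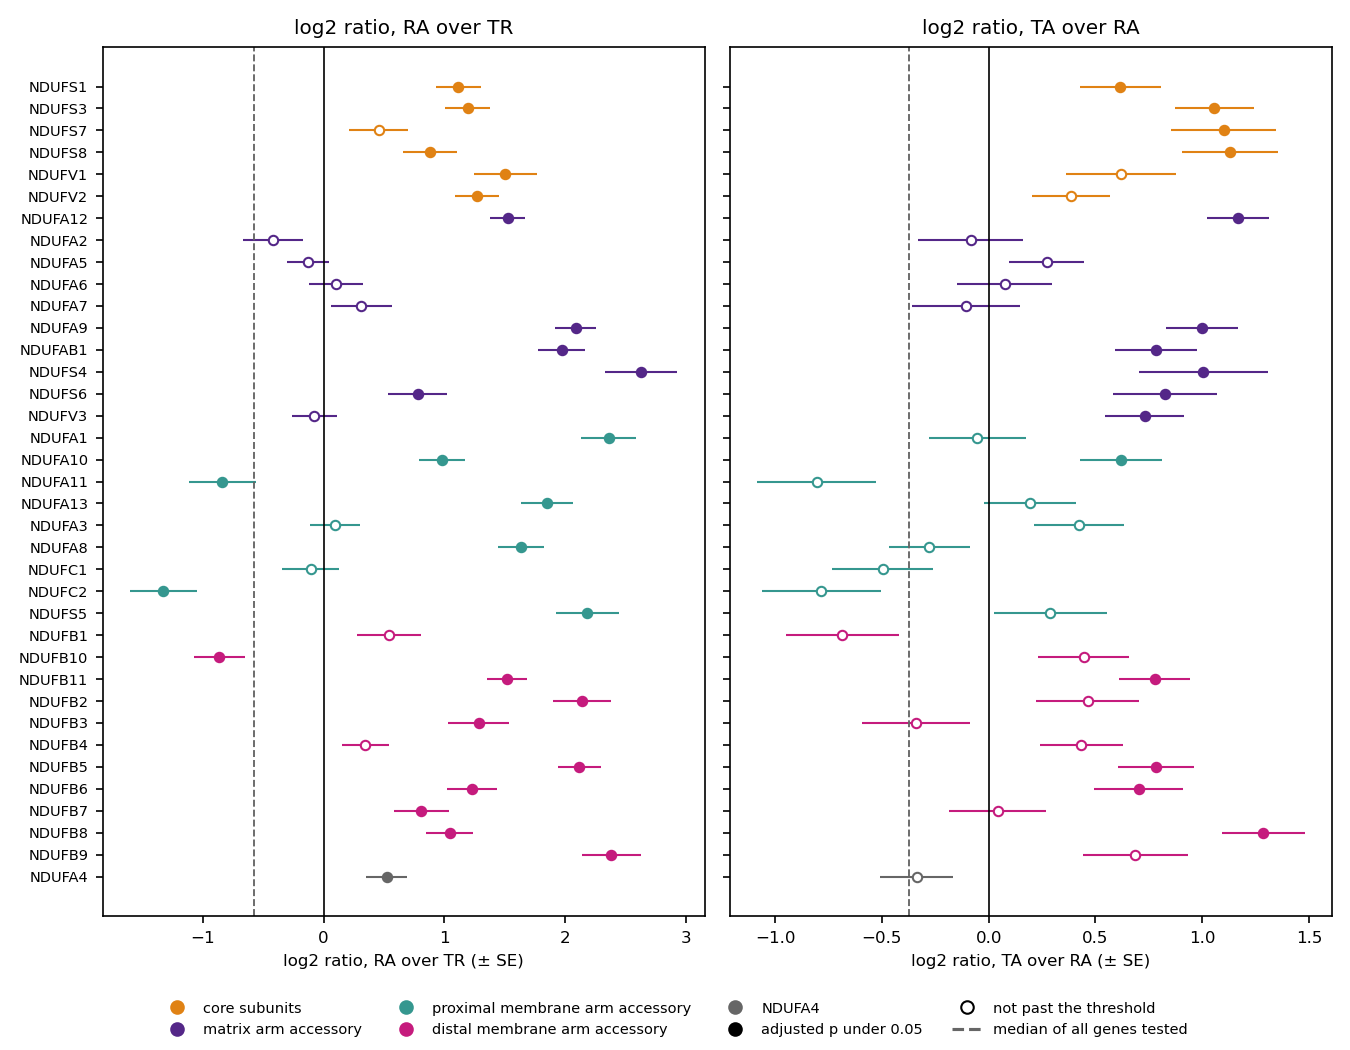
Log2 ratio of RA over TR (left) and of TA over RA (right) for 37 of the 38 complex I genes, with the SE from limma. Filled points passed an adjusted p of 0.05, colours mark the place of the subunit, and dashed lines mark the medians of all genes tested (-0.58 and -0.37). NDUFS4 lies farthest right on the left side and NDUFB8 on the right side.

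Among the accessory subunits of the proximal membrane arm, RA was changed in both directions and TA over RA in 1 gene. Of 9 genes, 5 were called above TR in RA and 2 below, and 1 was called above RA in TA. Of all genes tested, 19.2% were called above TR in RA, 48.0% below, and 6.66% above RA in TA. The median log2 ratios were 0.98 for RA over TR and -0.05 for TA over RA, both above the medians of all genes. NDUFA1, an X-linked subunit needed for assembly, was at 29.7 and 22.7 RPKM in TR, at 139, 160.1 and 107 in RA and at 137 and 121 in TA. RA and TA overlapped and both lay far above TR, with a log2 ratio of RA over TR of 2.36 ± 0.23 (adjusted p = 4.12e-05) and of TA over RA of -0.05 ± 0.23 (adjusted p = 0.880). NDUFA13, also known as GRIM-19, was at 65.8 and 51.5 RPKM in TR, at 233, 225 and 178 in RA and at 247 and 235 in TA. Its log2 ratio of RA over TR was 1.85 ± 0.22 (adjusted p = 0.000121), and NDUFS5, a small subunit of the intermembrane face, had 2.18 ± 0.26 (adjusted p = 0.000151). NDUFA10 was the gene called above RA in TA, at 0.62 ± 0.19 (adjusted p = 0.0378), a call that was kept only without RA replicate 1 when libraries were left out singly, with adjusted p up to 0.145.

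NDUFA11 and NDUFC2 went the other way. NDUFC2 was at 8.81 and 10.8 RPKM in TR, at 4.74, 3.68 and 3.24 in RA and at 1.74 and 2.74 in TA. The assays did not overlap, with 133 and 152 reads behind the TA values. Its log2 ratio was -1.33 ± 0.28 for RA over TR (adjusted p = 0.00307), and TA was 4.31-fold below TR (adjusted p = 0.000313). NDUFA11, a subunit at the contact with the rest of the respiratory supercomplex, was at 56.1 and 71.8 RPKM in TR, at 44.2, 27.8 and 36.1 in RA and at 15.8 and 25.9 in TA. These ranges did not overlap either, with a log2 ratio of -0.84 ± 0.28 for RA over TR (adjusted p = 0.0267) and TA 3.13-fold below TR (adjusted p = 0.00133). TA over RA was -0.81 ± 0.28 for NDUFA11 and -0.78 ± 0.28 for NDUFC2 (adjusted p = 0.0539 and 0.0583).

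The calls of RA below TR depended on single libraries, while both calls of TA below TR held without each library. Of all genes tested, 48.0% were called below TR in RA and 57.5% in TA. With centring, TA over TR was -0.94 for NDUFC2 (adjusted p = 0.0190) and -0.47 for NDUFA11 (adjusted p = 0.165), so that only NDUFC2 passed. The 3 genes with RA below TR without centring were NDUFA11, NDUFB10 and NDUFC2. When single libraries were left out, the adjusted p rose to 0.0519 for NDUFC2 (without TR replicate 2) and to 0.0515 for NDUFB10 (without TR replicate 1). For NDUFA11 it rose to as much as 0.209, and the call was lost without either TR library, RA replicate 2 or RA replicate 3. The genes with TA below RA at an unadjusted p under 0.05 were NDUFA11, NDUFB1 and NDUFC2, and those past the adjusted threshold in voom on whole reads were NDUFA11 and NDUFC2. Without TA replicate 2, 2 genes passed, and without RA replicate 2 or RA replicate 3, 1 passed. NDUFC2 shares 428 exon bases with the readthrough gene NDUFC2-KCTD14, which is listed at 0 in every library, and how reads on the shared exons were assigned is not known.

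NDUFC1, NDUFA3 and NDUFA8 completed the proximal membrane arm. NDUFC1 was at 34.9 and 49.02 RPKM in TR, at 37.9, 39.8 and 37.4 in RA and at 21.6 and 34.3 in TA. RA lay inside the TR range and TA below it, with a log2 ratio of TA over TR of -0.60 ± 0.26 (adjusted p = 0.0642, or 0.0149 without TA replicate 2). With centring NDUFC1 passed in no comparison, and its TA over TR was 0.57 (adjusted p = 0.0688). NDUFA3 was at 60.7 to 69.1 RPKM in TR, 58.4 to 77.2 in RA and 79.7 to 108 in TA. Its adjusted p for TA over TR was 0.0719, or 0.0436 without TA replicate 1, and with centring it passed for RA over TR and TA over RA (adjusted p = 0.00864 and 0.0124). NDUFA8, a subunit with paired cysteines that is imported into the intermembrane space, had a log2 ratio of 1.63 ± 0.19 for RA over TR (adjusted p = 0.000120) and of -0.28 ± 0.19 for TA over RA (adjusted p = 0.285).

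The accessory subunits of the distal membrane arm, all named NDUFB, held both the highest RA and TA of the complex and one of the genes that fell in RA. Of 11 genes, 8 were called above TR in RA, 1 below, 4 above RA in TA and 9 above TR in TA. NDUFB9, a subunit of the LYR family that binds acyl carrier protein, was at 54.9 and 52.4 RPKM in TR, at 279.7, 315 and 249.6 in RA and at 554 and 366 in TA. The assays did not overlap. RA over TR was 2.38 ± 0.25 (adjusted p = 6.05e-05) and TA over RA was 0.69 ± 0.25 (adjusted p = 0.0605, or 0.0454 without TA replicate 2). The exons of NDUFB9 share 165 bases with those of TATDN1 on the other strand, and without strand the reads of both genes could not be told apart there.

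NDUFB8 had the highest TA over RA of the 38 genes. It was at 57.97 and 58.5 RPKM in TR, at 142, 111 and 109.7 in RA and at 286 and 299.6 in TA, again with no overlap. The log2 ratio of TA over RA was 1.29 ± 0.19 or 2.44-fold (adjusted p = 0.00396), and that of RA over TR was 1.04 ± 0.19 (adjusted p = 0.00166). NDUFB5, NDUFB6 and NDUFB11 were the others called above RA in TA, at 0.70 to 0.78 in log2, and their calls were lost in 2, 6 and 1 of the 7 fits that left out a library.

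Of the other distal membrane arm genes, NDUFB2, NDUFB3 and NDUFB7 passed the test for RA above TR and not for TA above RA. NDUFB2 had a log2 ratio of RA over TR of 2.14 ± 0.24, on 35 and 36 reads in the TR libraries, and NDUFB3 of 1.28 ± 0.25 (adjusted p = 0.000103 and 0.00225). NDUFB7 had 0.81 ± 0.23 (adjusted p = 0.0132), and its call was lost without TR replicate 2, at 0.109. NDUFB4 had 0.35 ± 0.19 (adjusted p = 0.149, or 0.0384 without TR replicate 2) and passed the test for TA above TR, at 0.78 ± 0.21 (adjusted p = 0.0103, up to 0.0636 without TR replicate 1 or TA replicate 2).

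NDUFB10, a subunit with disulfide bonds that faces the intermembrane space, had the highest TR of the 38 genes. It was at 217 and 183 RPKM in TR, at 127, 95.3 and 108 in RA and at 136 and 163 in TA. TR lay above every RA and TA library, with a log2 ratio of RA over TR of -0.86 ± 0.21 (adjusted p = 0.00712) and of TA over RA of 0.44 ± 0.21 (adjusted p = 0.137). NDUFB1, the smallest of the NDUFB subunits, was at 28.8 and 41.5 RPKM in TR, at 65.96, 51.7 and 37.6 in RA and at 29.98 and 32.7 in TA. TA lay below every RA library, and the log2 ratio of TA over RA was the lowest of this group, at -0.69 ± 0.26 (adjusted p = 0.0764, or 0.0453 without RA replicate 3). Its RA over TR of 0.54 ± 0.26 had an adjusted p of 0.103, or 0.0361 without RA replicate 3. With centring, its RA over TR was 1.21 and its TA over TR 1.03 (adjusted p = 0.00332 and 0.0112). TA over RA was then -0.18 (adjusted p = 0.622).

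NDUFA4 carries the name of a complex I subunit and is now assigned to complex IV, cytochrome c oxidase. It was at 22.3 and 26.6 RPKM in TR, at 33.7, 38.2 and 33.4 in RA and at 25.5 and 30.1 in TA. RA lay above every TR library, while TA overlapped TR and lay below RA. Its log2 ratio of RA over TR was 0.52 ± 0.17 (adjusted p = 0.0255, or up to 0.117 without TR replicate 1, RA replicate 2 or RA replicate 3), and that of TA over RA was -0.34 ± 0.17 (adjusted p = 0.156). Without NDUFA4 the median log2 ratios of the other 37 genes were 1.04 and 0.46.

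The SD of log2 RPKM over the 38 genes was 0.98 and 1.0 in the TR libraries, 1.22 to 1.26 in the RA libraries and 1.45 and 1.61 in the TA libraries. Without NDUFC2 the SDs were 0.95 and 0.99, 1.03 to 1.09 and 1.22 and 1.36. The interquartile range did not separate TR from RA, at 1.2 and 1.13 in TR, 1.27, 1.04 and 1.23 in RA and 2.10 and 1.92 in TA. Over the 13244 genes tested with reads in every library the SD was 1.53 and 1.54 in TR, 2.53 to 2.55 in RA and 2.96 in both TA libraries. NDUFB10 was 32.1-fold and 29.2-fold above NDUFA10 in the TR libraries, while NDUFB9 was 59.0-fold to 85.6-fold above NDUFC2 in RA and 317.7-fold and 133.8-fold in TA. Without NDUFC2 the lowest gene was NDUFA5, and NDUFB9 was 34.6-fold to 44.8-fold above it in RA and 69.4-fold and 40.3-fold in TA. Across the 38 genes, Pearson's r between mean log2 levels was 0.62 for TR and RA (Spearman's rho 0.49), 0.94 for RA and TA (rho 0.92) and 0.49 for TR and TA (rho 0.38). Over the 13789 genes tested with a mean above 0 in each assay, r was 0.65 (rho 0.68), 0.97 (rho 0.96) and 0.60 (rho 0.64). The points share libraries and exon lengths, and genes are not independent replicates.

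Within the complex, TA over RA was higher in members with a longer coding sequence. The split at 400 coding bases was chosen after the values were seen. Of the 16 members with a coding length under 400 bases, 2 were called above RA in TA, with a median log2 ratio of 0.01, and of the 22 longer members 14 were called above, with a median of 0.74. Coding length also differed with the place of the subunit, and these were not tested apart. Its median was 769.5 bases in the 6 core genes described here and 409.5, 357 and 411 in the matrix, proximal and distal accessory genes. The median TA over RA was 0.84, 0.76, -0.05 and 0.46 in the same order. Spearman's rho between TA over RA and coding length was 0.64 over the 38 genes (Pearson's r on log2 length 0.56), which share the RA and TA libraries. Over 13129 genes tested with a coding length rho was -0.04. Of 655 genes with a coding length under 400 bases, 1.53% were called above RA and 39.4% below, with a median log2 ratio of -0.72. Of 12474 longer genes these values were 7.26%, 28.1% and -0.33. RA over TR had a rho of 0.20 with coding length over the 38 genes and of -0.37 with the exon length used for RPKM. Among members with exons under 1000 bases RA was above TR for 17 of 23, and among all 976 genes of that length for 250, with median log2 ratios of 1.23 and -1.47.

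**Figure D3:**
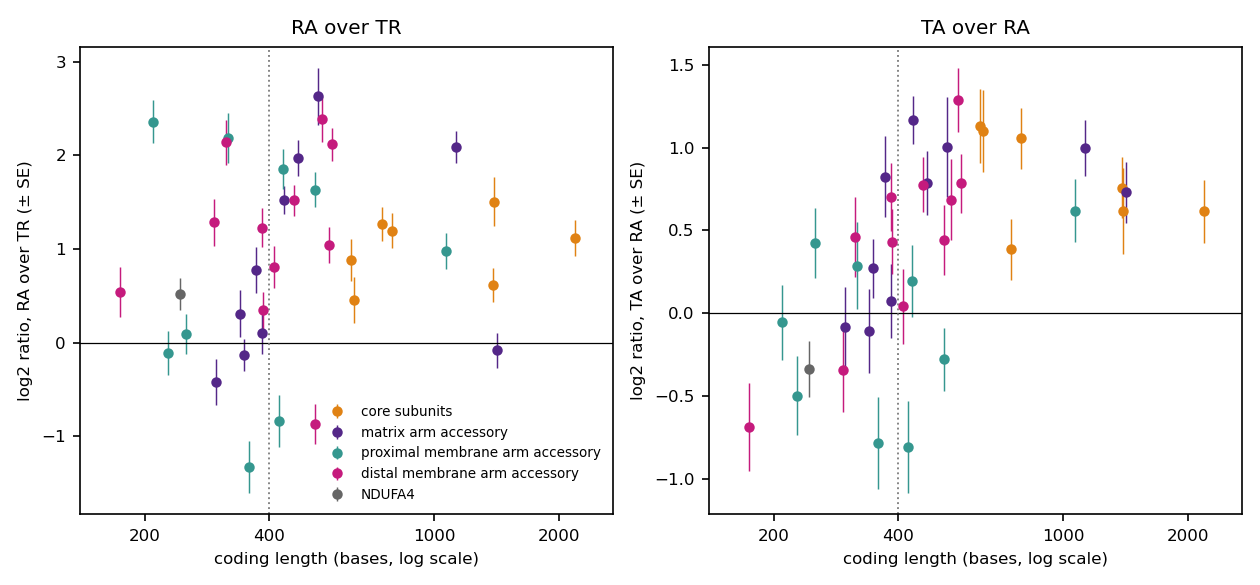
Log2 ratio of RA over TR (left) and of TA over RA (right), each ± SE from limma, against the coding length of each complex I gene (bases, log scale). The dotted line marks 400 bases, and on the right side 2 of 16 genes to its left and 14 of 22 to its right passed the test for TA above RA.

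Other genes of mitochondrial respiration are given for comparison. The 40 nuclear genes for complexes II to V had RA above TR for 32 and below for 0, with a median log2 ratio of 1.65, and TA above RA for 10 and below for 4, with a median of 0.18. With centring these counts were 37 and 0, and 20 and 0. The 77 genes for mitochondrial ribosomal proteins had RA above TR for 34 and below for 9, with a median of 0.38, and TA above RA for 31 and below for 7, with a median of 0.41. With centring these were 60 and 6, and 52 and 0. No test was made of the difference between these lists and the complex I genes.

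The assembly factors of complex I, which help to build the enzyme and do not stay in it, were given for the same comparisons. Of 19 genes, RA was above TR for 1, TIMMDC1, and below TR for 11, with a median log2 ratio of -0.76. Of all genes tested, 19.2% were called above and 48.0% below, with a median of -0.58. With centring the counts for the 19 genes were 5 and 4, beside 5066 and 4814 of all 14305 genes. TA was above RA for 4 of the 19 and below for 2, with a median of 0.29. Over all genes these values were 6.66%, 29.2% and -0.37. NDUFAF3, which helps to join the matrix arm to the membrane, was at 108 and 124 RPKM in TR, at 29.7, 22.3 and 27.3 in RA and at 51.4 and 60.6 in TA. It had the lowest RA over TR and the highest TA over RA of the list, at -2.14 ± 0.19 and 1.09 ± 0.19 (adjusted p = 2.41e-05 and 0.00555). TIMMDC1, an assembly factor of the membrane arm, went the other way, with 0.68 ± 0.17 for RA over TR and -1.06 ± 0.17 for TA over RA (adjusted p = 0.00792 and 0.00446), and COA1 had the lowest TA over RA, at -1.36 ± 0.26 (adjusted p = 0.00757).

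**Figure D4:**
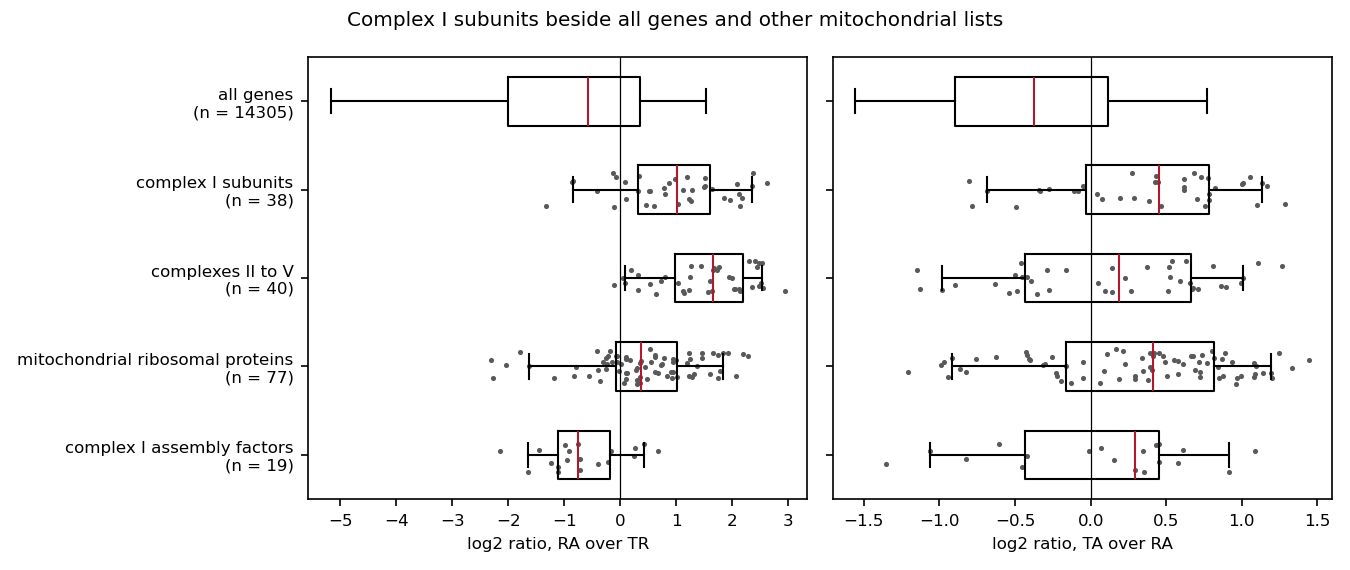
Log2 ratio of RA over TR (left) and of TA over RA (right) for all genes tested, the 38 complex I genes and 3 other mitochondrial lists. Boxes run between the quartiles with the median in red, whiskers run from the 5th to the 95th percentile, and dots are single genes. The median of the complex I genes lies at 1.01 on the left side and 0.45 on the right.

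Of the transcription regulators of respiratory genes 8 of 9 could be tested, and PPARGC1A was below the filter on low values. RA was above TR for 2, GABPA and GABPB1, which form the ETS factor GABP, at 1.43 ± 0.19 and 1.5 ± 0.25 (adjusted p = 0.000282 and 0.000874), and below TR for 4, beside 48.0% of all genes called below. Of all genes, 19.2% were called above TR in RA. With centring RA was above TR for 4 of the 8 regulators and below for 0, beside 5066 and 4814 of all 14305 genes. TA was above RA for 0 regulators and below for 1, ESRRA, an orphan nuclear receptor, at -1.17 ± 0.17 (adjusted p = 0.00362). Over all genes, 6.66% were called above RA in TA and 29.2% below. NRF1, nuclear respiratory factor 1, was at 11.3 and 11.9 RPKM in TR, at 10.5, 11.97 and 12.1 in RA and at 11.2 and 10.3 in TA. PPRC1 had the highest TA over RA of the list, at 0.40 ± 0.20 (adjusted p = 0.160), and PPARGC1B the lowest RA over TR, at -0.81 ± 0.25 (adjusted p = 0.0197).

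Promoters of 32 members had a window in the RefSeq table (GRCh38.p14), from 250 bases before to 50 bases after the start site, and the first window listed per gene was used. NDUFA4, NDUFB5, NDUFB9, NDUFC2 and NDUFS5 were among those with none. A core of the NRF1 motif, CGCATGCG, which is its own reverse complement, was present in 4 of 32 windows (12.5%) and in 3.57% of 10588 windows of genes tested. The ETS core CCGGAAG or its reverse complement CTTCCGG was present in 5 of 32 (15.6%), against 17.8%. The YY1 core AAGATGGC or its reverse complement GCCATCTT was present in 6 of 32 (18.8%), against 5.10%. The 4 stretches with the NRF1 core are shown because this factor is a known activator of respiratory genes, in 30 bases of the gene's own strand with the core in capitals.
NDUFA8: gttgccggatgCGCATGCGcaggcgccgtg
NDUFB4: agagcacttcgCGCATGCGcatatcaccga
NDUFS6: cagaagccgtgCGCATGCGttagcgctaag
NDUFS7: gttccggtttcCGCATGCGctccgagccgc

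These stretches lie at chr9:122159764-122159793 on the minus strand for NDUFA8, at chr3:120596167-120596196 for NDUFB4, at chr5:1801351-1801380 for NDUFS6 and at chr19:1383822-1383851 for NDUFS7, the last 3 on the plus strand. The core began 3, 158, 45 and 74 bases before the start site. The median TR was 35.7 RPKM for the 4 genes and 34.7 for the 28 others with a window. The median log2 ratio of RA over TR was 0.62 and 1.08. A match of these letters is a description of the sequence and was not tested as a binding site.

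In GENCODE on GRCh37 the 38 genes lie on 18 chromosomes and all are protein coding. NDUFS4, with the highest RA over TR, spans chr5:52856463-52979168 on the plus strand, and NDUFB8, with the highest TA over RA, spans chr10:102283497-102289757 on the minus strand. NDUFB10 spans chr16:2009539-2011976 on the plus strand and NDUFC2 chr11:77779343-77790908 on the minus strand. Exons of 7 members overlap another listed gene, namely NDUFA2, NDUFA3, NDUFA7, NDUFB8, NDUFB9, NDUFC2 and NDUFS1, and the strand setting of the counting was not given in the sources used here. Without these 7 the median log2 ratios of the other 31 were 1.2 for RA over TR and 0.46 for TA over RA, with RA above TR for 22 and TA above RA for 14. Named pseudogenes exist for 19 members, and how the counting split reads between them and their parent genes is uncertain. The 19 members without one had RA above TR for 11 and TA above RA for 9, with medians of 0.81 and 0.62.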

How the data were processed

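The authors mapped reads to hg19 with TopHat at default settings, used HTSeq-count on exon regions, and deposited the resulting RPKM per gene and library, with values for 20056 of the 20072 symbols and NA for the other 16. RNA and polysome libraries were made from mRNA isolated with a kit. The submitters' processing notes also name CASAVA. The counting mode, strand setting and annotation were not given in the sources used here.

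Library sizes and exon lengths were worked out from the deposited RPKM values, of which 99.998% were whole reads within 0.0001 reads, and this step was tested on simulated data. The 14305 genes whose mean reached 1 RPKM in any of the 3 assays were tested on log2(RPKM + 0.1) in limma 3.58.1 (R 4.3.3). The fit held all 7 libraries, 1 mean per assay and a mean-variance trend in eBayes. Tests were two-sided with Benjamini-Hochberg adjustment over all genes at a threshold of 0.05, and members were read out of that table. Fold changes are on the log2(RPKM + 0.1) scale. No test was made over the list of members. The members and gene lists were chosen with earlier results of these data known. Of the members, 1 is counted and not reported singly here. Named were the other core subunits, the highest and lowest member of each other group in either ratio, members called against the majority or in no comparison, the 3 highest and lowest in RA, NDUFA4, NDUFAB1 and members that overlap a listed gene. Other members are named beside a count.

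Whether libraries with the same replicate number came from the same culture was not given in the sources used here. The paper's scheme divides log-phase cells among the 3 assays. Between assays, the difference between replicates 2 and 1 over genes correlated at 0.08 for TR and RA and -0.50 for RA and TA. For TR and TA the correlation was 0.01. These values do not settle the pairing, and the main fit held no block. Alternatives were other pseudocounts and filters, centring, a replicate block, no trend, voom on whole reads, fits of 2 assays and each library left out. Leaving out members with an overlapping gene was chosen after seeing the data. Gene positions and coding lengths came from GENCODE release 44 lifted to GRCh37, with the canonical transcript, and the longest coding transcript for NDUFB6. Plots were drawn with matplotlib 3.10.9, and other values were computed in Python 3.11.15 with pandas 2.3.3, numpy 2.4.6 and scipy 1.17.1.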

Additional observations from a re-analysis of the deposited data

How the results depend on the processing

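No complex I count or named ratio that passed the test changed direction under any alternative run. Centring each library on its median moved RA below TR from 3 genes to 0, TA above RA from 16 to 25 and TA below TR from 2 to 1. With at least 1 RPKM required in each of TR, RA and TA, or with voom on whole reads, TA below RA went from 0 genes to 2. Leaving out 1 library at a time gave 1 to 4 genes for RA below TR, 7 to 16 for TA above RA and 0 to 2 for TA below RA, and the counts of RA above TR, TA above TR and TA below TR stayed within 1.5 times. Leaving out members that overlap a listed gene gave 1 gene for TA below TR. With a replicate block, TA above RA went from 16 genes to 3 (NDUFA9, NDUFA12 and NDUFB8), and over all genes from 953 to 109, while RA above TR went from 25 to 21. The block rests on replicate numbers, and whether these pair the libraries is not known. With it fewer residual degrees of freedom remain. Only RA had a replicate 3, so the block term for that number fitted this library alone. RA over TR of NDUFA10 was 1.06 in log2 both with the block and without RA replicate 3. Without RA replicate 3 and with no block, TA above RA was already down to 7 genes. Pseudocounts of 0.01 and 1 changed 0 of the 114 calls over the 38 genes and 3 comparisons. The cause of any move in these counts was not tested. Depth limits the TR values most, where the smallest complex I value rests on 35 reads, and an interval from reads would cover counting error only.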
